A study of Mus musculus with 10 samples.

Results

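The 40 genes described here encode RNA polymerase I with its initiation factors, the small nucleolar ribonucleoproteins (snoRNPs), abundant nucleolar proteins and the assembly factors of both ribosomal subunits. They were taken by symbol from a list of ribosome biogenesis genes. The rule used no measured value, but the 40 were chosen with earlier results of these data known. All 40 were found once each among the 35275 genes of the count table, and all 40 passed the filter on low counts. The cells were 2/20 CTLs, a mouse cytotoxic T cell line of wild-type genotype. The line was kept on the antigen peptide AH1 (1 µg/mL), IL-2 (10 units/mL) and lethally irradiated BALB/c spleen cells. That upkeep of the line was shared by every group, while AH1 as a treatment is listed for the peptide groups alone. Poly(A) RNA was sequenced from CTLs co-cultured with 4T1 mammary tumour cells for 24 h or 4 h, from CTLs activated with AH1 peptide (1 µg/mL) for 24 h or 4 h, and from resting CTLs. Each of these 5 groups had 2 libraries. CTLs were recovered on anti-CD45 magnetic beads. Tumour cells were not sequenced by themselves in the data used here. Nothing says whether the 2 libraries of a group came from separate cultures, so the p-values measure the spread between these libraries, which may be technical.

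Ribosomes are built in the nucleolus, where RNA polymerase I transcribes the ribosomal RNA precursor. Guide RNAs in box C/D and box H/ACA snoRNPs direct methylation and pseudouridylation of that precursor, and large sets of assembly factors cut and fold it into the small and the large subunit. T cells that meet antigen enlarge their nucleoli and make more ribosomes before they divide, and the transcription factor Myc is known to drive many of these genes.

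The libraries held 14104658 to 22910633 counts. Levels are given as CPM (read counts per 1000000 counts of the library) scaled by trimmed mean of M-values (TMM) factors, which were 0.711 and 0.758 with peptide at 4 h and 1.03 to 1.11 in the other libraries. Transcripts of Ifng took 9.14% and 7.48% of the counts of the 2 peptide 4 h libraries. Epithelial transcripts were present in co-culture: the summed level of 20 epithelial genes was 4455 to 5089 CPM there, 4.42 to 13.4 CPM with peptide and 30.01 to 33.5 CPM at rest, and all 20 genes had counts in every co-culture library. The keratin gene Krt8 stood at 855 to 1356 CPM in co-culture and at no more than 1.85 CPM elsewhere. Most of the epithelial sum at rest came from Sfn alone, with 28.9 and 22.3 CPM there. The summed level of 19 T cell identity genes was 1434 to 1498 CPM in co-culture at 24 h, 3352 to 3495 CPM in co-culture at 4 h, 4891 to 5201 CPM with peptide at 24 h, 15694 to 16341 CPM with peptide at 4 h and 9837 to 10200 CPM at rest. The peptide libraries held B cell transcripts (215 to 558 CPM over 13 gene IDs), against 0.788 to 1.70 CPM in co-culture and 3.98 to 4.46 CPM at rest. Myeloid genes summed to 181 to 237 CPM with peptide at 4 h and to 21.5 to 84.1 CPM in the other groups. Stromal genes, 9 in all, summed to 3.62 CPM in peptide 24 h replicate 1 and to 101.7 CPM in replicate 2. B cell genes summed to 215 and 454 CPM in these libraries. The stromal sum was 463 to 1725 CPM in co-culture, where Fn1 alone had 444 to 1684 CPM. It was 5.09 to 8.03 CPM with peptide at 4 h and 4.48 to 5.77 CPM at rest. The part of these other cells in the values below was not tested, and in such bulk samples fewer cells of a type and less RNA per cell cannot be told apart.

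Most of the 40 genes were at their lowest at rest and at their highest 4 h after peptide. They took 0.880% and 0.989% of all counts in co-culture at 24 h, 1.09% and 1.04% in co-culture at 4 h, 1.39% and 1.42% with peptide at 24 h, 1.53% and 1.53% with peptide at 4 h, and 0.369% and 0.376% at rest. Thus every treated library lay above both resting libraries. At an adjusted p under 0.05, 33 of the 40 rose in co-culture at 24 h, where 36.0% of all 14729 genes tested were called higher, and 38 rose in co-culture at 4 h, where 34.2% were. With peptide, 39 rose at 24 h and 39 at 4 h, against 29.2% and 28.8% of all genes called higher. None of the 40 fell in these comparisons. The median log2 fold change of the 40 was 1.25, 1.62, 2.01 and 2.85 in the same order, against medians of 0.05, 0.05, 0.02 and -0.04 over all genes. All 4 comparisons share the resting libraries. Under TMM scaling, 11 of the 19 T cell identity genes (57.9%) were themselves higher and 4 (21.1%) lower with peptide at 4 h than at rest. Of all genes, 28.8% were higher and 30.7% lower there. Scaling to T cell identity genes uses 17 of them, each taken relative to its own mean over the libraries on the log2 scale. It makes the median of these 17 equal in all libraries, whatever the source of a difference. This is not a measure of cell content. With libraries scaled to T cell identity genes, all 40 were higher in co-culture at 24 h, where 82.5% of all genes were, in co-culture at 4 h, where 69.1% were, and with peptide at 24 h, where 55.7% were, and 39 were higher and 1 lower with peptide at 4 h, where 18.1% of all genes were higher and 42.4% lower. The median of all genes under that scaling was 2.77, 1.5005, 1.03 and -0.57 in the same order, and the median of the 40 lay above it by 1.21, 1.57, 2.00 and 2.88. A change of scaling moves all genes by nearly the same amount, so these distances could hardly differ from those under TMM scaling.

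**Figure D1:**
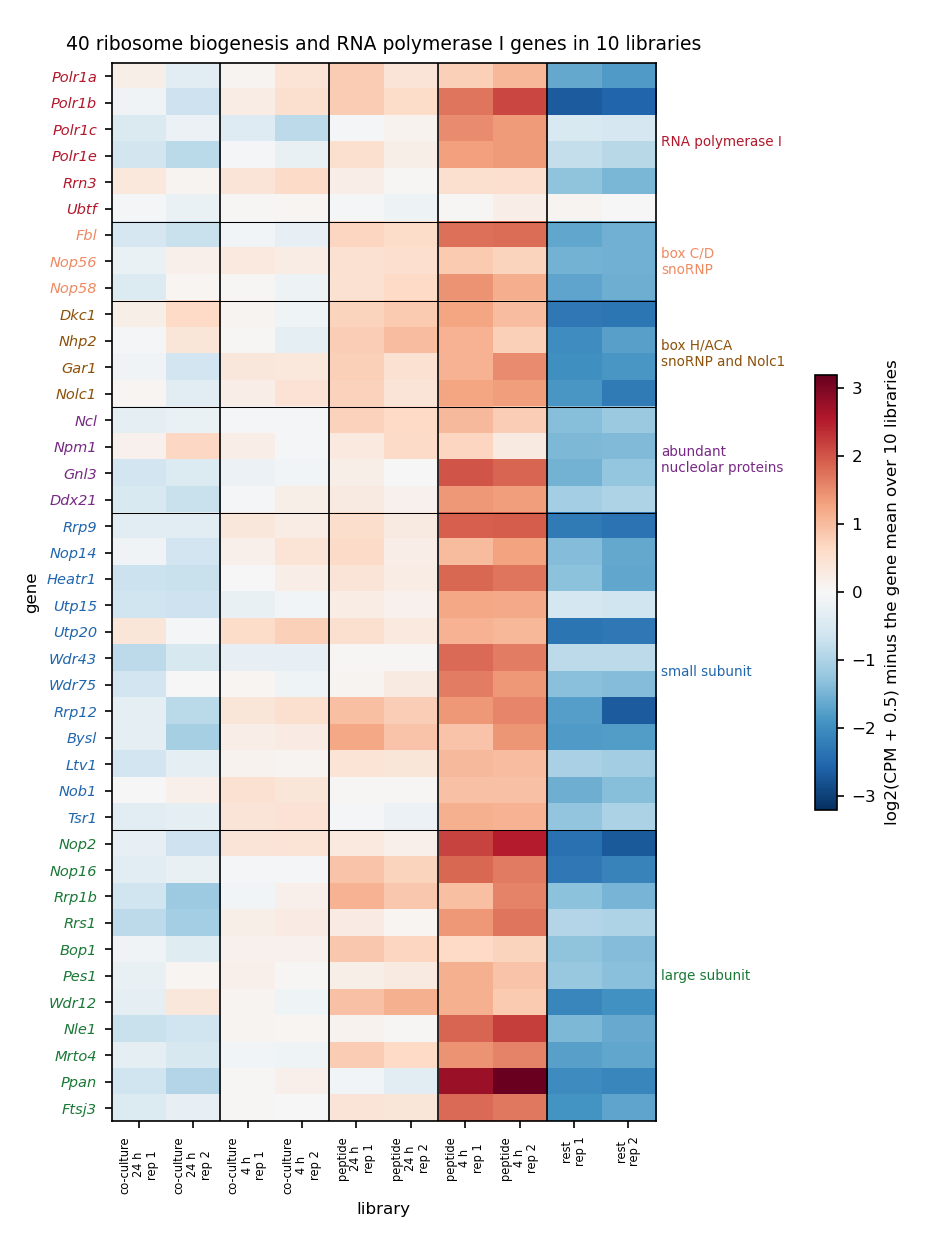
Level of each of the 40 genes (rows, grouped by role) in each of the 10 libraries (columns), as log2(CPM + 0.5) minus the gene's mean over the 10 libraries; red is above and blue below that mean. Peptide 4 h columns are the reddest and the resting columns the bluest for most genes, while Ubtf is close to white throughout.

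Among the genes of RNA polymerase I, the pattern differed from one to the next. Polr1b encodes a large catalytic subunit and lies on chromosome 2 from 129100995 to 129126594 on the forward strand in mm10. Polr1b had 33.5 and 22.8 CPM in 24 h co-culture, 42.8 and 52.4 CPM in 4 h co-culture, 64.3 and 54.7 CPM with peptide at 24 h, 119.8 and 162 CPM with peptide at 4 h, and 5.32 and 5.84 CPM at rest. Every treated library exceeded both resting ones. The gene rose in all 4 comparisons, with a log2 fold change of 2.34 ± 0.24 (SE, adjusted p = 1.59e-06) in co-culture at 24 h and 3.10 ± 0.24 (SE, adjusted p = 1.41e-07) at 4 h. With peptide the log2 fold change was 3.42 ± 0.24 (SE, adjusted p = 9.83e-08) at 24 h and 4.66 ± 0.25 (SE, adjusted p = 6.94e-09) at 4 h. Polr1a had 70.4 and 48.4 CPM in 24 h co-culture, 65.8 and 82.7 CPM in 4 h co-culture, 109 and 81.2 CPM with peptide at 24 h, 104 and 129 CPM with peptide at 4 h, and 19.4 and 17.2 CPM at rest. Polr1a, the gene of the other large catalytic subunit, was likewise lowest at rest with no overlap, and its log2 fold change with peptide at 4 h was 2.67 ± 0.22 (SE, adjusted p = 3.60e-07). Rrn3 had 101 and 85.1 CPM in 24 h co-culture, 107 and 122 CPM in 4 h co-culture, 92.0 and 82.2 CPM with peptide at 24 h, 114 and 117 CPM with peptide at 4 h, and 32.2 and 28.8 CPM at rest. Rrn3, which brings the polymerase to the ribosomal DNA promoter, overlapped between co-culture and peptide and was low at rest. Its log2 fold change with peptide at 4 h was 1.91 ± 0.15 (SE, adjusted p = 2.10e-07).

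Polr1c and Polr1e rose in both peptide groups and did not pass the threshold in co-culture at 24 h. Polr1c encodes a subunit that RNA polymerases I and III share. Polr1c had 67.2 and 82.4 CPM in 24 h co-culture, 69.5 and 52.4 CPM in 4 h co-culture, 91.3 and 101 CPM with peptide at 24 h, 265 and 239 CPM with peptide at 4 h, and 66.1 and 63.7 CPM at rest. The 2 peptide 4 h libraries stood far above all others, and the co-culture 4 h libraries lay on both sides of the resting ones. The log2 fold change was 0.20 ± 0.16 (SE, adjusted p = 0.284) in co-culture at 24 h and -0.094 ± 0.16 (SE, adjusted p = 0.641) at 4 h, neither past the threshold under TMM scaling. With peptide it was 0.57 ± 0.16 (SE, adjusted p = 0.00959) at 24 h and 1.96 ± 0.17 (SE, adjusted p = 4.04e-07) at 4 h. The call at 24 h was lost without peptide 24 h replicate 2 (log2 fold change 0.51, adjusted p = 0.0537), without resting replicate 1 (0.59, adjusted p = 0.0633) and without resting replicate 2 (0.54, adjusted p = 0.0704). Polr1e encodes a subunit particular to RNA polymerase I, and its locus overlaps Fbxo10 on the opposite strand. Polr1e had 18.5 and 15.2 CPM in 24 h co-culture, 27.7 and 24.0 CPM in 4 h co-culture, 40.3 and 32.2 CPM with peptide at 24 h, 70.3 and 73.9 CPM with peptide at 4 h, and 16.5 and 15.0 CPM at rest. In co-culture at 24 h its libraries overlapped the resting ones, with a log2 fold change of 0.091 ± 0.18 (SE, adjusted p = 0.682), while with peptide at 4 h it was 2.19 ± 0.18 (SE, adjusted p = 3.38e-07).

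Ubtf, the gene of an architectural factor that binds ribosomal DNA, passed the threshold in none of the 9 comparisons under TMM scaling. It lies on chromosome 11 from 102304560 to 102319742 on the reverse strand. Ubtf had 223 and 201 CPM in 24 h co-culture, 237 and 243 CPM in 4 h co-culture, 225 and 208 CPM with peptide at 24 h, 235 and 266 CPM with peptide at 4 h, and 245 and 234 CPM at rest. All 10 libraries thus fell in a narrow range. The log2 fold change against rest was -0.18 ± 0.13 (SE, adjusted p = 0.234) in co-culture at 24 h and 0.0026 ± 0.13 (SE, adjusted p = 0.993) at 4 h. With peptide it was -0.15 ± 0.13 (SE, adjusted p = 0.349) at 24 h and 0.065 ± 0.13 (SE, adjusted p = 0.689) at 4 h. Under scaling to T cell identity genes they were 2.54 in co-culture at 24 h, 1.45 in co-culture at 4 h, 0.87 with peptide at 24 h and -0.46 with peptide at 4 h.

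**Figure D2:**
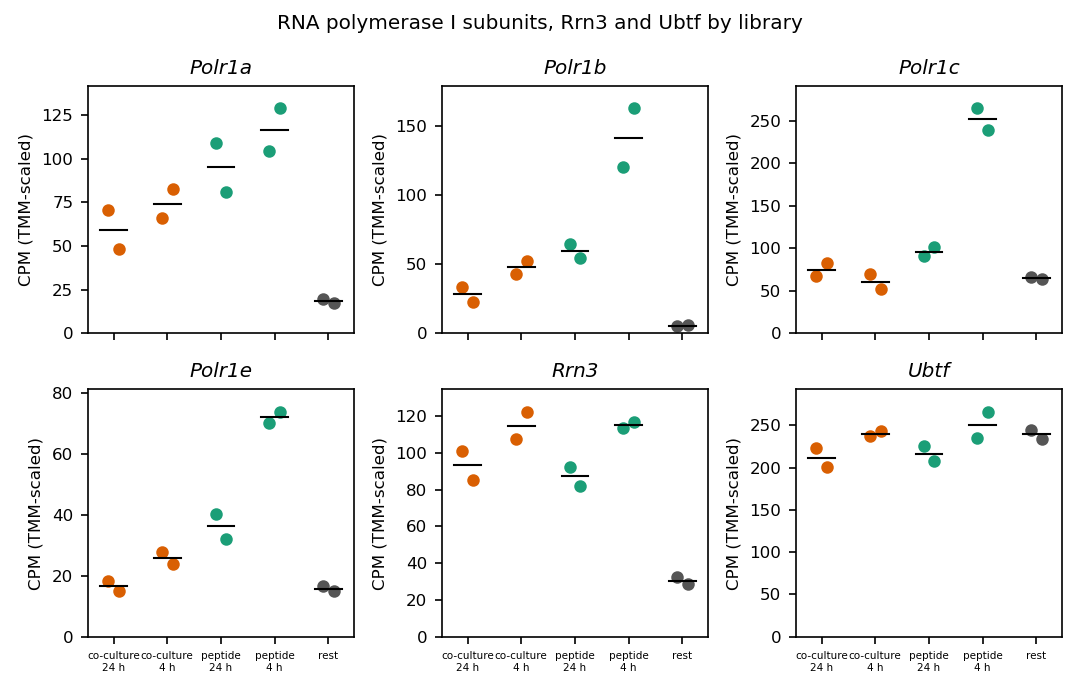
Levels of the RNA polymerase I genes Polr1a, Polr1b, Polr1c and Polr1e and of the factors Rrn3 and Ubtf in CPM (vertical axes, from 0), by group; each point is a library and each bar the mean of 2. Polr1c reaches 265 and 239 CPM with peptide at 4 h and 67.2 and 82.4 CPM in co-culture at 24 h, against 66.1 and 63.7 CPM at rest, while Ubtf stays between 201 and 266 CPM in all 10 libraries.

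The 3 box C/D snoRNP genes rose in all 4 comparisons with rest. Fbl encodes fibrillarin, the methyltransferase of these particles, and had the highest fold change of the 3 with peptide at 4 h. Fbl had 129 and 114 CPM in 24 h co-culture, 177 and 156 CPM in 4 h co-culture, 302 and 284 CPM with peptide at 24 h, 634 and 654 CPM with peptide at 4 h, and 59.1 and 63.9 CPM at rest. The groups did not overlap. The log2 fold change with peptide at 4 h was 3.39 ± 0.14 (SE, adjusted p = 1.40e-09). Nop56 had 314 and 404 CPM in 24 h co-culture, 452 and 426 CPM in 4 h co-culture, 511 and 527 CPM with peptide at 24 h, 651 and 597 CPM with peptide at 4 h, and 126 and 124 CPM at rest. For Nop56, a core protein whose locus overlaps Idh3b on the opposite strand by 5 bases, the peptide libraries again stood above the co-culture ones, and those above rest. Its log2 fold change with peptide at 4 h was 2.32 ± 0.15 (SE, adjusted p = 2.85e-08). Nop58, the partner of Nop56, had 933 to 1121 CPM with peptide at 4 h, against 129 and 141 CPM at rest.

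All 4 genes of the box H/ACA group rose in each comparison with rest, with a median log2 fold change of 1.99 in co-culture at 24 h, 2.30 in co-culture at 4 h, 2.69 with peptide at 24 h and 3.32 with peptide at 4 h. Dkc1 encodes dyskerin, the pseudouridine synthase, which is also part of telomerase. Dkc1 had 175 and 239 CPM in 24 h co-culture, 162 and 138 CPM in 4 h co-culture, 251 and 275 CPM with peptide at 24 h, 369 and 302 CPM with peptide at 4 h, and 31.1 and 30.1 CPM at rest. Its 2 co-culture 24 h libraries both exceeded the 2 at 4 h, which held for no other of the 40 genes. The log2 fold change was 2.76 ± 0.18 (SE, adjusted p = 2.46e-08) in co-culture at 24 h, the largest of the 40 in that comparison, 3.10 ± 0.18 (SE, adjusted p = 2.20e-08) with peptide at 24 h and 3.45 ± 0.18 (SE, adjusted p = 7.42e-09) with peptide at 4 h. Nhp2 had 175 and 235 CPM in 24 h co-culture, 184 and 143 CPM in 4 h co-culture, 306 and 356 CPM with peptide at 24 h, 386 and 302 CPM with peptide at 4 h, and 44.9 and 53.2 CPM at rest. Nhp2, a core protein of the same particle, was also lowest at rest without overlap, and its log2 fold change with peptide at 4 h was 2.81 ± 0.20 (SE, adjusted p = 8.28e-08). Dkc1 overlaps Mpp1 by 45 bases and Nhp2 overlaps Rmnd5b by 44 bases, both on the opposite strand. Gar1, another core protein, had 121 and 161 CPM with peptide at 4 h, against 13.9 and 15.0 CPM at rest, and Nolc1, a chaperone of snoRNPs, had 472 and 498 CPM, against 54.3 and 41.1 CPM at rest.

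The abundant nucleolar proteins rose in all 4 comparisons. Npm1, the gene of nucleophosmin, and Ncl, that of nucleolin, together made 29.0% to 53.5% of the counts of the 40 genes in a library. Npm1 had 2294 and 3316 CPM in 24 h co-culture, 2437 and 1998 CPM in 4 h co-culture, 2621 and 3219.7 CPM with peptide at 24 h, 3381 and 2578 CPM with peptide at 4 h, and 775 and 789 CPM at rest. All treated libraries lay above rest but overlapped among themselves. The log2 fold change of Npm1 was 1.90 ± 0.20 (SE, adjusted p = 3.12e-06) with peptide at 24 h and 1.93 ± 0.20 (SE, adjusted p = 2.13e-06) with peptide at 4 h. Ncl had 1543 and 1645 CPM in 24 h co-culture, 1837 and 1878 CPM in 4 h co-culture, 3171 and 2976 CPM with peptide at 24 h, 3961 and 3295 CPM with peptide at 4 h, and 739 and 840.1 CPM at rest. For Ncl the peptide libraries were highest, and its log2 fold change with peptide at 24 h was 1.96 ± 0.14 (SE, adjusted p = 9.03e-08). Gnl3, the gene of the nucleolar GTPase nucleostemin, was high mainly 4 h after peptide. Gnl3 had 107 and 121 CPM in 24 h co-culture, 144 and 153 CPM in 4 h co-culture, 186 and 164 CPM with peptide at 24 h, 659 and 591 CPM with peptide at 4 h, and 56.4 and 68.7 CPM at rest. Its log2 fold change there was 3.32 ± 0.16 (SE, adjusted p = 2.99e-09). Ddx21, an RNA helicase gene, had 1054 and 1107 CPM with peptide at 4 h, against 197 and 210 CPM at rest.

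Of the 12 small subunit genes, 10 rose in co-culture at 24 h and all 12 in each of the other 3 comparisons with rest. Rrp9 encodes a protein of the U3 snoRNP, which guides the early cuts of the precursor, and its locus overlaps Parp3 on the opposite strand. Rrp9 had 80.4 and 81.9 CPM in 24 h co-culture, 133 and 122 CPM in 4 h co-culture, 153 and 126 CPM with peptide at 24 h, 391 and 399 CPM with peptide at 4 h, and 21.3 and 19.8 CPM at rest. Its log2 fold change with peptide at 4 h was 4.26 ± 0.15 (SE, adjusted p = 5.80e-10), the highest of the 12. Utp20, a component of the early small subunit precursor, was the small subunit gene with the highest fold change in co-culture. Utp20 had 119 and 86.7 CPM in 24 h co-culture, 135 and 153 CPM in 4 h co-culture, 130.4 and 112 CPM with peptide at 24 h, 196 and 189 CPM with peptide at 4 h, and 17.5 and 18.2 CPM at rest. The treated libraries all lay far above rest. For Utp20 the log2 fold change was 2.53 ± 0.17 (SE, adjusted p = 4.14e-08) in co-culture at 24 h and 3.02 ± 0.18 (SE, adjusted p = 1.23e-08) in co-culture at 4 h.

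Utp15 and Wdr43, which act at the link between transcription and early processing, did not pass in co-culture at 24 h. Utp15 had 48.8 and 47.7 CPM in 24 h co-culture, 64.1 and 70.7 CPM in 4 h co-culture, 88.6 and 83.4 CPM with peptide at 24 h, 178 and 177 CPM with peptide at 4 h, and 51.1 and 48.9 CPM at rest. Both co-culture 24 h libraries were below both resting ones, by little. The log2 fold change of Utp15 was -0.052 ± 0.13 (SE, adjusted p = 0.744) in co-culture at 24 h and 0.43 ± 0.13 (SE, adjusted p = 0.0112) in co-culture at 4 h. The call in co-culture at 4 h was lost without co-culture 4 h replicate 2 (log2 fold change 0.38, adjusted p = 0.101) and without resting replicate 2 (0.41, adjusted p = 0.0811). With peptide it was 0.78 ± 0.13 (SE, adjusted p = 0.000202) at 24 h and 1.83 ± 0.13 (SE, adjusted p = 9.62e-08) at 4 h. Wdr43 had 185 and 231 CPM in 24 h co-culture, 279 and 276 CPM in 4 h co-culture, 344 and 344 CPM with peptide at 24 h, 1169.9 and 1038 CPM with peptide at 4 h, and 187 and 187 CPM at rest. The resting and co-culture 24 h libraries overlapped here, and the log2 fold change in co-culture at 24 h was 0.15 ± 0.14 (SE, adjusted p = 0.337). The other 8 genes, Nop14, Heatr1, Wdr75, Rrp12, Bysl, Ltv1, Nob1 and Tsr1, had log2 fold changes with peptide at 4 h between 2.10 and 3.64. In co-culture at 24 h these lay between 0.62 and 1.62.

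**Figure D3:**
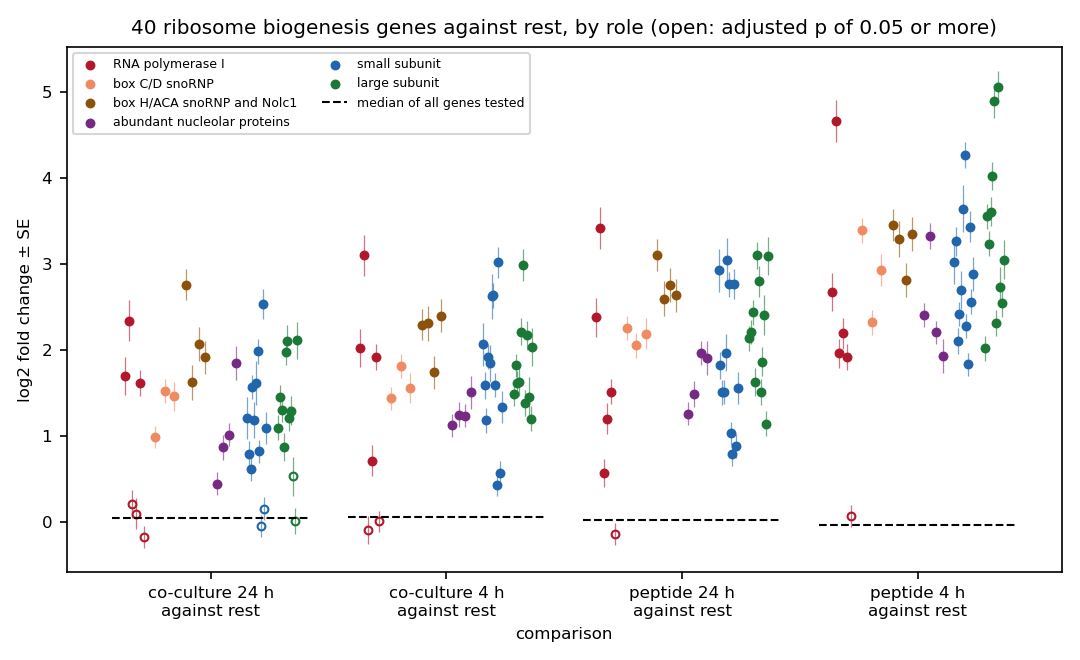
Log2 fold change ± SE against rest (vertical axis) of the 40 genes in the 4 treated groups (horizontal axis), coloured by role; open points did not pass an adjusted p of 0.05, and the dashed line is the median of all genes tested. The highest point is Ppan with peptide at 4 h at 5.05, and the open points are 7 genes in co-culture at 24 h, 2 in co-culture at 4 h and Ubtf in each peptide group.

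All 11 large subunit genes rose in 3 of the comparisons with rest, and 9 rose in co-culture at 24 h. Ppan had the highest fold change of the 40 with peptide at 4 h. It encodes a factor of early large subunit assembly and lies on chromosome 9 from 20888175 to 20892178 on the forward strand. Ppan had 94.0 and 76.9 CPM in 24 h co-culture, 149 and 164 CPM in 4 h co-culture, 137 and 116 CPM with peptide at 24 h, 1004 and 1312 CPM with peptide at 4 h, and 35.7 and 34.0 CPM at rest. The peptide 4 h libraries stood several times above every other library, with a log2 fold change of 5.05 ± 0.19 (SE, adjusted p = 6.51e-10). Nop2 encodes a methyltransferase acting on the large subunit RNA. Nop2 had 133 and 102 CPM in 24 h co-culture, 214 and 219 CPM in 4 h co-culture, 199 and 179.7 CPM with peptide at 24 h, 714 and 912 CPM with peptide at 4 h, and 30.02 and 24.5 CPM at rest. Its 4 co-culture and 4 peptide libraries all exceeded rest, and its log2 fold change in co-culture at 4 h was 2.98 ± 0.18 (SE, adjusted p = 1.78e-08).

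Pes1, Bop1 and Wdr12 encode the 3 proteins of the PeBoW complex, which is required for maturation of the large subunit RNA. Bop1 had 92.9 and 76.9 CPM in 24 h co-culture, 111 and 112 CPM in 4 h co-culture, 185 and 163 CPM with peptide at 24 h, 156 and 166 CPM with peptide at 4 h, and 41.1 and 38.5 CPM at rest. The peptide libraries at both times overlapped for Bop1, whose locus overlaps Mroh1 on the opposite strand. Its log2 fold change with peptide at 4 h was 2.02 ± 0.15 (SE, adjusted p = 9.21e-08), the lowest of the 11. Wdr12 had 59.1 and 94.9 CPM in 24 h co-culture, 78.6 and 67.2 CPM in 4 h co-culture, 141 and 162 CPM with peptide at 24 h, 162 and 132 CPM with peptide at 4 h, and 16.9 and 18.7 CPM at rest. For Wdr12 the peptide libraries were highest, with a log2 fold change of 3.09 ± 0.22 (SE, adjusted p = 1.21e-07) at 24 h. Pes1 had 267 and 311 CPM with peptide at 4 h, against 55.4 and 60.9 CPM at rest.

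Rrs1 and Rrp1b were the 2 large subunit genes that did not pass in co-culture at 24 h. Rrs1 acts with the 5S particle during assembly. Rrs1 had 86.0 and 71.8 CPM in 24 h co-culture, 177 and 184 CPM in 4 h co-culture, 184 and 162 CPM with peptide at 24 h, 407 and 506 CPM with peptide at 4 h, and 79.7 and 77.4 CPM at rest. Its co-culture 24 h libraries lay on both sides of the resting ones, and the log2 fold change was 0.0068 ± 0.15 (SE, adjusted p = 0.979). Rrp1b had 59.0 and 41.1 CPM in 24 h co-culture, 86.6 and 104 CPM in 4 h co-culture, 199 and 169 CPM with peptide at 24 h, 179.9 and 279.5 CPM with peptide at 4 h, and 37.1 and 32.3 CPM at rest. Both co-culture 24 h libraries of Rrp1b exceeded both resting ones, and the log2 fold change was 0.53 ± 0.22 (SE, adjusted p = 0.0528), a call that 11 of the 17 alternatives made. The remaining 4 genes, Nop16, Nle1, Mrto4 and Ftsj3, had log2 fold changes with peptide at 4 h between 3.23 and 4.02.

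Per kilobase of the deposited gene length, Npm1 was the highest of the 40 with 1718 CPM per kb in co-culture at 24 h, 1824 CPM per kb with peptide at 4 h and 479 CPM per kb at rest (means of 2 libraries). Polr1b was the lowest at rest with 1.40 CPM per kb, against 7.03 CPM per kb in co-culture at 24 h and 35.3 CPM per kb with peptide at 4 h. Ppan ranked 2 of the 40 with peptide at 4 h at 632 CPM per kb and 15 at rest at 19.0 CPM per kb. Ubtf, which passed in no comparison under TMM scaling, ranked 28 with peptide at 4 h at 53.4 CPM per kb and 5 at rest at 51.1 CPM per kb.

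Set against peptide at the same time, co-culture libraries held less of most of these transcripts under TMM scaling. At 4 h, 37 of the 40 were lower in co-culture, where 26.3% of all genes were, but scaled to T cell identity genes 28 (70.0%) were higher and 1 lower, where 82.3% of all genes were higher. The median log2 fold change of the 40 was -1.21, against 0.16 over all genes, a difference of -1.37. This difference was -1.36 scaled to T cell identity genes, but a change of scaling can hardly alter it. Ppan differed most, with a log2 fold change of -2.89 ± 0.17 (SE, adjusted p = 1.43e-08), followed by Gnl3 with -2.08 ± 0.15 (SE, adjusted p = 7.08e-08) and Polr1c with -2.05 ± 0.17 (SE, adjusted p = 2.68e-07). Scaled to T cell identity genes, Gnl3 and Polr1c no longer passed, with log2 fold changes of -0.09 (adjusted p = 0.571) and -0.05 (adjusted p = 0.817). The 3 genes that did not pass were Npm1 with -0.43 ± 0.19 (SE, adjusted p = 0.0681), Ubtf with -0.062 ± 0.13 (SE, adjusted p = 0.686) and Rrn3 with -0.0024 ± 0.14 (SE, adjusted p = 0.992).

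At 24 h, 31 of the 40 were lower in co-culture than with peptide under TMM scaling, where 24.0% of all genes were lower, but scaled to T cell identity genes 37 were higher and none lower, where 78.5% of all genes were higher. The median log2 fold change was -0.75, against 0.02 over all genes. It lay 0.77 below that of all genes when scaled to T cell identity genes, a distance that a change of scaling can hardly alter. Rrp1b had the lowest value with -1.88 ± 0.22 (SE, adjusted p = 1.10e-05), and Bysl, whose product joins late small subunit precursors, had -1.71 ± 0.24 (SE, adjusted p = 4.54e-05). Neither passed when scaled to T cell identity genes, with -0.17 (adjusted p = 0.497) for Rrp1b and -0.0027 (adjusted p = 0.993) for Bysl. Bysl had 48.3 and 28.0 CPM in 24 h co-culture, 67.8 and 70.0 CPM in 4 h co-culture, 140.1 and 110.2 CPM with peptide at 24 h, 111 and 158 CPM with peptide at 4 h, and 16.4 and 16.6 CPM at rest. Peptide libraries were the highest for Bysl, and the locus overlaps Ccnd3, which had more counts, on the opposite strand. For Fbl the log2 fold change was -1.27 ± 0.13 (SE, adjusted p = 2.89e-06) under TMM scaling and 0.44 scaled to T cell identity genes. Among the 9 genes that did not pass were Rrn3 with 0.10 ± 0.14 (SE, adjusted p = 0.602), Nob1, the gene of the endonuclease that finishes the small subunit RNA, with 0.052 ± 0.14 (SE, adjusted p = 0.772), and Npm1 with -0.058 ± 0.19 (SE, adjusted p = 0.821). The epithelial and T cell sums above moved with both of these comparisons, and levels in co-culture cannot be assigned to CTLs or to 4T1 cells.

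Between the times, levels were lower at 24 h than at 4 h after peptide for 29 of the 40 under TMM scaling, where 24.6% of all genes were lower, but scaled to T cell identity genes 27 (67.5%) were higher and 2 lower, where 69.6% of all genes were higher, and by library totals 18 were lower and 6 higher, where 12.6% of all genes were lower and 43.4% higher. The median log2 fold change was -0.80, against 0.03 over all genes. Of the 19 T cell identity genes, 16 were themselves lower and 1 higher at 24 h than at 4 h after peptide under TMM scaling, with a median of -1.63. Ppan had a log2 fold change of -3.19 ± 0.17 (SE, adjusted p = 9.83e-09), Nop2 of -2.10 ± 0.17 (SE, adjusted p = 4.26e-07) and Gnl3 of -1.84 ± 0.15 (SE, adjusted p = 3.07e-07). Scaled to T cell identity genes, the value of Gnl3 was -0.30 (adjusted p = 0.0985). Bop1 at 0.12 ± 0.14 (SE, adjusted p = 0.512) and Npm1 at -0.029 ± 0.19 (SE, adjusted p = 0.926) did not pass.

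In co-culture, 18 of the 40 were lower at 24 h than at 4 h under TMM scaling, where 8.02% of all genes were lower and 8.50% higher, but scaled to T cell identity genes 34 were higher and none lower, where 73.5% of all genes were higher. The median log2 fold change was -0.43, against 0.01 over all genes. It was -0.45 without co-culture 24 h replicate 2, -0.45 without co-culture 4 h replicate 1 and -0.40 without co-culture 4 h replicate 2. The medians of all genes there were 0.005, 0 and 0.02. Fewer of the 40 were called lower in these fits, and so were fewer of all genes. Rrs1 had -1.19 ± 0.15 (SE, adjusted p = 0.000119) under TMM scaling and 0.076 scaled to T cell identity genes, and Rrp12, which takes part in export of the precursors, had -1.01 ± 0.24 (SE, adjusted p = 0.0128) under TMM scaling and 0.26 scaled to T cell identity genes. Rrp12 had 60.0 and 40.2 CPM in 24 h co-culture, 96.0 and 105 CPM in 4 h co-culture, 142 and 126 CPM with peptide at 24 h, 191 and 217 CPM with peptide at 4 h, and 21.3 and 11.1 CPM at rest. For Rrp12 the call was lost without co-culture 24 h replicate 2 (log2 fold change -0.74, adjusted p = 0.117), without co-culture 4 h replicate 1 (-1.07, adjusted p = 0.0563) and without co-culture 4 h replicate 2 (-0.94, adjusted p = 0.125). Dkc1 at 0.47 ± 0.17 (SE, adjusted p = 0.0747) did not pass.

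The change over time was itself compared between co-culture and peptide. In this interaction, 16 of the 40 passed with a less negative or more positive change in co-culture and none the other way, where 15.8% of all genes were called higher and 20.2% lower, but the split was 5 higher and 8 lower by library totals, where 6.79% of all genes were higher and 35.6% lower, and 7 higher and 2 lower scaled to T cell identity genes, where 9.42% were higher and 24.6% lower. The median interaction of the 40 was 0.47, against -0.10 over all genes, and without co-culture 4 h replicate 2 it was 0.48, against -0.08. Fewer of the 40 and fewer of all genes were called in that fit. Ppan had an interaction of 2.32 ± 0.23 (SE, adjusted p = 7.37e-06), Polr1c of 1.69 ± 0.23 (SE, adjusted p = 9.69e-05), Gnl3 of 1.46 ± 0.20 (SE, adjusted p = 0.00011) and Wdr43 of 1.27 ± 0.19 (SE, adjusted p = 0.000216).

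**Figure D4:**
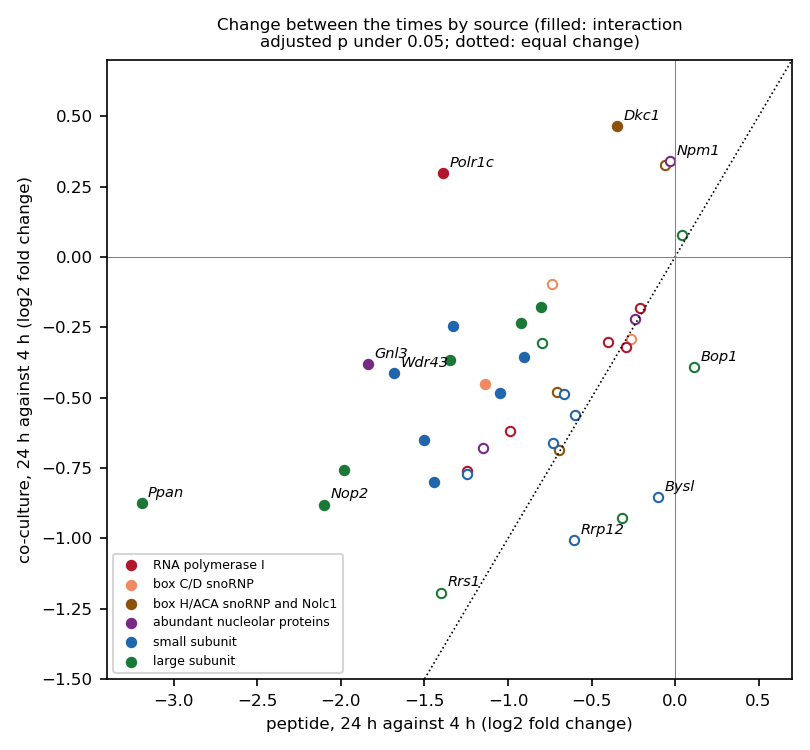
Log2 fold change of 24 h against 4 h in co-culture (vertical axis) and with peptide (horizontal axis) for the 40 genes, TMM scaling, coloured by role; filled points had an interaction with adjusted p under 0.05 and the dotted line marks equal change. Ppan lies farthest to the left at -3.19 and Polr1c stands at -1.39 with peptide and 0.30 in co-culture; by library totals or T cell identity scaling many of these directions turn.

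Other genes of the pathway, from lists that leave out the 40, were counted in the same way under TMM scaling. Scaled to T cell identity genes, at most 1 gene of any of these lists was lower in co-culture at 24 h or 4 h, so nearly all the lower calls given for co-culture below are not made under that scaling. By library totals the lower calls of each list in co-culture were as many or up to 2 fewer. Over all genes, 36.0% were higher and 29.3% lower in co-culture at 24 h, 34.2% higher and 26.7% lower in co-culture at 4 h, 29.2% higher and 26.1% lower with peptide at 24 h, and 28.8% higher and 30.7% lower with peptide at 4 h, and the counts of each list stand beside these shares. Of 19 other RNA polymerase I genes, 10 rose and 4 fell in co-culture at 24 h, 10 rose and 3 fell in co-culture at 4 h, 8 rose and 3 fell with peptide at 24 h, and 15 rose and none fell with peptide at 4 h. Mybbp1a, which encodes a nucleolar Myb-binding protein, had log2 fold changes of 1.90, 2.67, 2.71 and 4.05 in that order, all passed. Znrd1, the gene of a small RNA polymerase I subunit, fell by 1.94 on the log2 scale in co-culture at 24 h, by 1.70 in co-culture at 4 h and by 1.02 with peptide at 24 h, while its log2 fold changes scaled to T cell identity genes were 0.79, -0.24 and 0.0016. Of 40 other small subunit factors, 19 rose and 6 fell in co-culture at 24 h, 26 rose and 5 fell in co-culture at 4 h, 31 rose and none fell with peptide at 24 h, and 37 rose and none fell with peptide at 4 h. Of 38 other large subunit factors, 24 rose and 5 fell, 29 rose and 4 fell, 29 rose and 2 fell, and 34 rose and 1 fell in the same order. Nvl, the gene of a nucleolar AAA-ATPase of large subunit assembly, fell in all 4, with log2 fold changes of -1.55, -1.88, -1.59 and -2.01, of which that in co-culture at 24 h was 1.18 scaled to T cell identity genes.

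Of 12 snoRNP assembly genes, 8 rose and 1 fell in co-culture at 24 h, 6 rose and none fell in co-culture at 4 h, 10 rose and none fell with peptide at 24 h, and 8 rose and 1 fell with peptide at 4 h. Ruvbl2, the gene of an ATPase in the assembly chaperone, had 84.3 and 67.2 CPM in 24 h co-culture, 74.4 and 75.0 CPM in 4 h co-culture, 132 and 117 CPM with peptide at 24 h, 86.8 and 97.9 CPM with peptide at 4 h, and 10.98 and 14.2 CPM at rest. Of 14 RNA exosome genes, 5 rose and 3 fell, 6 rose and 2 fell, 12 rose and 1 fell, and 11 rose and 1 fell in the same order. Those 5 and 3 in co-culture at 24 h were 35.7% and 21.4% of the list, against 36.0% and 29.3% of all genes. With peptide at 4 h the exosome genes were 5 higher and 3 lower by library totals and scaled to T cell identity genes alike. Of all genes, 19.1% were higher and 42.5% lower there by library totals, and 18.1% and 42.4% scaled to T cell identity genes. Of 22 genes of RNA polymerase III, which makes 5S rRNA and tRNAs, 7 rose and 5 fell, 10 rose and 4 fell, 13 rose and 3 fell, and 11 rose and 3 fell. The 7 and 5 in co-culture at 24 h were 31.8% and 22.7% of that list, below the same shares of all genes. With peptide at 4 h 8 were higher and 6 lower by library totals and scaled to T cell identity genes alike, beside the shares of all genes just given for these scalings. Maf1, the gene of its repressor, fell in all 4 comparisons, with log2 fold changes of -1.497, -1.54, -1.71 and -1.79, of which that in co-culture at 24 h was 1.22 and that in co-culture at 4 h was -0.095 scaled to T cell identity genes.

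**Figure D5:**
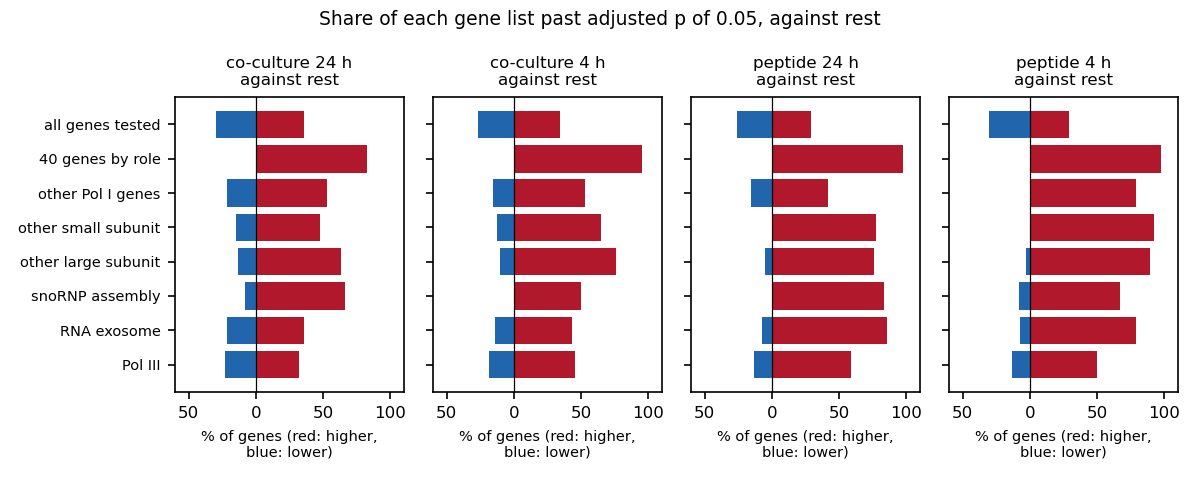
Percentage of the genes of each list (rows) called higher (red, to the right of 0) or lower (blue, to the left) than rest at an adjusted p under 0.05, with 1 panel per treated group. The 40 genes have no blue bar in any panel, and the other small subunit factors have 37 of 40 called higher with peptide at 4 h.

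Myc had 147 and 106 CPM in 24 h co-culture, 192 and 215 CPM in 4 h co-culture, 468 and 404 CPM with peptide at 24 h, 1231 and 1444 CPM with peptide at 4 h, and 187 and 182 CPM at rest. Its transcript was thus above rest in every peptide library and below it in both libraries of co-culture at 24 h, where the log2 fold change was -0.55 (adjusted p = 0.00989) under TMM scaling and 2.17 scaled to T cell identity genes. In co-culture at 4 h it was 0.14 (adjusted p = 0.475) under TMM scaling and 1.59 scaled to T cell identity genes. The E-box CACGTG is the sequence that Myc with its partner Max is known to bind. It reads the same on both strands. In the RefSeq windows of GRCm38.p6, from 250 bases before to 50 bases after each start, 35 of the 40 genes were matched. Of these 35, 8 (22.9%) held CACGTG, against 11.4% of the 9773 protein-coding genes tested that had a window and 8.09% of all 27025 genes with a window. The 8 were Nop2, Ltv1, Utp20, Pes1, Tsr1, Nle1, Rrn3 and Wdr43. Ubtf was not among them, nor was Ppan. The motif was chosen with the data known, and a match describes letters, not binding. The 3 matches upstream of a start, in Nop2 and at a pair of places in Rrn3, are shown with the motif in capitals, all on the forward strand: chr6:125131796-125131855 for Nop2, then chr16:13780457-13780516 and chr16:13780624-13780683 for Rrn3.
Nop2, motif first base at -60 from the start: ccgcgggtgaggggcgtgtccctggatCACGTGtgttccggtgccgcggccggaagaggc
Rrn3, motif first base at -215: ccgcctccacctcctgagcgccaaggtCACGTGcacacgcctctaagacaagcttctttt
Rrn3, motif first base at -48: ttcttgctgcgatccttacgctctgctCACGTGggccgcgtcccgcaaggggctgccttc
The windows of 4 of the 35 genes (11.4%) held TCTCGCGA on either strand, against 2.36% of protein-coding genes tested, and 11 (31.4%) held CCGGAAG on either strand, against 19.4%.

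Several of the 40 genes carry other genes inside them. In GENCODE M21, 8 of them hold 23 snoRNA genes on their own strand, 5 in Nop56, 4 in Nop58, 3 each in Ncl, Gnl3 and Wdr43, 2 each in Tsr1 and Ppan and 1 in Dkc1, so that transcription of these host genes also yields guide RNAs, which poly(A) libraries are not made to capture. Other genes on the opposite strand overlap 14 of the 40. For 7 genes, Bysl, Bop1, Rrp9, Nop56, Nhp2, Dkc1 and Polr1e, the overlapping gene had counts of 10% or more of their own. These counts are of the whole overlapping gene, not of reads in the shared bases. The shared bases numbered 5 for Nop56, 43 for Bop1 with Mroh1, 44 for Nhp2 and 45 for Dkc1. Below the cut, Tsr1 shares 2984 bases with Srr (9.42%) and Bop1 2031 bases with Scx (8.26%). The libraries were stranded, but how strand was treated in the counting is not stated. The values of the 14 overlapped genes are thus uncertain to an extent that was not tested.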

How the data were processed

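Poly(A) RNA of 10 libraries, 2 in each of 5 groups, was analysed. The authors deposited whole-number read counts per gene, unscaled. DESeq2 1.36 and mm10, the mouse build, appear in the submitters' processing notes. The aligner, counting tool, strand setting and annotation version were not stated. Here the counts were fitted with edgeR 4.0.16 in R 4.3.3 (filterByExpr, TMM, quasi-likelihood F test, two-sided, 1 mean per group over all 10 libraries), with Benjamini-Hochberg adjustment over 14729 genes, a threshold of 0.05 and 9 contrasts. The interaction was 24 h against 4 h in co-culture minus that with peptide. The biological coefficient of variation was 0.159. The fit was tested on simulated data for peptide 4 h against rest over 14509 genes. There 73 of 100 genes changed 2-fold and 99 of 100 changed 4-fold were recovered, with 6 false calls. In the measured libraries 28.8% of all genes were called higher and 30.7% lower in that comparison. Recovery and false calls with such large shares of genes changed were not tested, and neither figure extends to that case. Of the deposited genes, 12534 had no count. Gene roles, pathway lists, markers and motifs were chosen with earlier results of these data known, as were the 40 genes. Values in every library are given for the RNA polymerase I genes, for the highest and lowest fold change of each role with peptide at 4 h, and for up to 6 genes that broke a comparison's pattern. Values of Ncl, Nop2, Utp20, Rrp12, Bysl and Wdr12 are given besides and were chosen after they were seen. Alternatives were other scalings (DESeq2 size factors, library totals, the median of 17 T cell identity genes), no filter, the DESeq2 1.42.0 Wald test, only the groups compared, a replicate block, and each library left out. Promoter windows are RefSeq's. The spread between the 2 libraries of a group limits the precision, and no interval beyond the SE was computed.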

Additional observations from a re-analysis of the deposited data

Results flagged for a closer look

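The change over time differed between co-culture and peptide by the test of the interaction in 16 of the 40 genes, all with a higher value in co-culture under TMM scaling, where 15.8% of all genes were called higher and 20.2% lower. Fewer of the 40 and fewer of all genes were called without co-culture 4 h replicate 2. By library totals 5 were higher and 8 lower, where 6.79% of all genes were higher and 35.6% lower. The largest interaction was that of Ppan (log2 2.32), followed by Polr1c (1.69), Gnl3 (1.46) and Wdr43 (1.27). With 2 libraries in a group, no library could be tested as standing apart from the rest of its group.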

How the results depend on the processing

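In the 4 comparisons with rest, the counts of genes called higher stayed within 1.5 times the reported ones under every alternative run. By library totals, 1 gene was lower with peptide at 4 h against rest (42.5% of all genes lower), and 2 were higher in co-culture than with peptide at 4 h (50.9% of all genes higher). Under that scaling 6 were higher and 18 lower with peptide at 24 h than at 4 h (43.4% of all genes higher and 12.6% lower), and the interaction had 5 higher and 8 lower (6.79% and 35.6%). Scaled to T cell identity genes, 1 gene was lower with peptide at 4 h against rest, 28 were higher and 1 lower in co-culture than with peptide at 4 h (82.3% of all genes higher), 37 higher and 0 lower at 24 h (78.5%), 27 higher and 2 lower with peptide at 24 h than at 4 h (69.6%), 34 higher and 0 lower in co-culture at 24 h than at 4 h (73.5%), and the interaction had 7 higher and 2 lower (9.42% of all genes higher and 24.6% lower). Relative to the median of all genes, the median of the 40 in co-culture against peptide at 4 h was -1.37 under TMM, -1.37 by library totals and -1.36 scaled to T cell identity genes. A change of scaling moves all genes by nearly the same amount, so this difference could hardly change and is no check of the result. Without a filter, 2 genes were higher in co-culture at 24 h than at 4 h, and 2 had a lower interaction. With 1 library left out, the genes lower in co-culture at 24 h than at 4 h numbered 5 to 20 and those higher 0 to 2, and the interaction had 9 to 16 higher and 0 to 3 lower. Omitting co-culture 24 h replicate 1 gave the 2 higher genes and the 3 lower interactions, and omitting peptide 4 h replicate 2 gave 2 lower interactions. A group left with 1 library was assumed to vary like the others. The share of all genes called moved from fit to fit too, and the counts with 1 library left out are to be read beside that. The replicate block called 39 higher with peptide at 4 h against rest (27.7% of all genes), 16 lower in co-culture at 24 h than at 4 h (6.6%) and 13 higher in the interaction (14.2%). Deviations of same-numbered libraries correlated at -0.59 to 0.31 between groups over 9124 genes. These values do not show that the numbers pair the samples, but with 1 difference per group they cannot exclude it. Log2 fold changes that changed sign by library totals were Ubtf -0.43 (peptide 4 h against rest), Polr1c 0.0028 (co-culture 4 h against rest), Utp15 0.013 (co-culture 24 h against rest), Rrn3 0.59, Ubtf 0.53, Npm1 0.18 (co-culture against peptide at 4 h), Npm1 0.55 (peptide 24 h against 4 h). Scaled to T cell identity genes, they were Ubtf -0.46 (peptide 4 h against rest), Ubtf 0.87 (peptide 24 h against rest), Polr1c 1.37 (co-culture 4 h against rest), Ubtf 2.54, Utp15 2.67 (co-culture 24 h against rest), Rrn3 1.97, Ubtf 1.92, Npm1 1.57 (co-culture against peptide at 4 h), Fbl 0.44, Npm1 1.64 (co-culture against peptide at 24 h), Npm1 1.54 (peptide 24 h against 4 h), Rrp12 0.26, Rrs1 0.076 (co-culture 24 h against 4 h). Without a filter, they were Ubtf -0.0074 (co-culture 4 h against rest), Rrs1 -0.0059 (co-culture 24 h against rest), Rrn3 0.010 (co-culture against peptide at 4 h), and with only the groups compared Ubtf -0.017 (co-culture 4 h against rest), Rrs1 -0.027 (co-culture 24 h against rest). With 1 library left out, 11 changed sign, with ranges of Polr1e -0.042 to 0.25 (co-culture 24 h against rest), Rrs1 -0.11 to 0.15 (co-culture 24 h against rest), Rrn3 -0.080 to 0.11 (co-culture against peptide at 4 h), Rrn3 -0.021 to 0.23 (co-culture against peptide at 24 h), Npm1 -0.33 to 0.20 (co-culture against peptide at 24 h), Nob1 -0.028 to 0.16 (co-culture against peptide at 24 h), Polr1c -0.29 to 0.12 (co-culture 4 h against rest), Npm1 -0.23 to 0.17 (peptide 24 h against 4 h), Ubtf -0.029 to 0.040 (co-culture 4 h against rest), Ubtf -0.029 to 0.15 (peptide 4 h against rest), Ubtf -0.17 to 0.00013 (co-culture against peptide at 4 h). Rrp1b in co-culture at 24 h passed as higher under 11 of the 17 alternatives, among them DESeq2's Wald test (adjusted p = 0.036), DESeq2 size factors (0.0496), library totals (0.0498), only the groups compared (0.0338) and no filter (0.00642). Npm1 in co-culture against peptide at 4 h passed as lower under 6 and as higher under 1. Over the 17 alternatives, adjusted p ranged from 3.3e-08 to 0.39 for Rrp1b and from 5.45e-05 to 0.41 for Npm1 in these comparisons, from 2.97e-05 to 0.0704 for Polr1c with peptide at 24 h, from 1.41e-07 to 0.101 for Utp15 in co-culture at 4 h, and from 7.04e-08 to 0.372 for Rrp12 in co-culture at 24 h against 4 h. For Polr1c and Gnl3 in co-culture against peptide at 4 h, and for Gnl3 with peptide at 24 h against 4 h, the highest were 0.817, 0.571 and 0.0985, and for Bysl and Rrp1b in co-culture against peptide at 24 h they were 0.993 and 0.497. The cause was not tested for any of these. Depth was 14104658 counts or more in each library, and 2 libraries per group limit the precision.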
